A study of Homo sapiens with 6 samples.

Results

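The replication-dependent histone genes encode the linker histone H1 and the 4 core histones H2A, H2B, H3 and H4. They were taken as every protein-coding row of the deposited gene table whose name runs from HIST1H to HIST4H, which gave 71 of 58735 genes: 6 for H1, 17 for H2A, 18 for H2B, 15 for H3 and 15 for H4. By cluster, 55 carried the prefix HIST1, 12 HIST2, 3 HIST3 and 1 HIST4. RNA was sequenced from the human cell line MOLM-13, labelled as wild type acute myeloid leukaemia cells, in 3 untreated control cultures and 3 cultures given 8p. The labels describe 8p as a RET and CDK8 inhibitor and the design text as an inhibitor of RET and CDK kinases. It was used at 3.5 nM, below the stated IC50 of 7 nM, and both groups were incubated for 48 hours. All 6 libraries come from 1 cell line, and the submitters call the replicates of each group independent.

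Replication-dependent histone genes supply the protein that packages newly copied DNA, so most of their mRNA is made in S phase of the cell cycle. Their mRNAs are the known exception to polyadenylation in animal cells: the transcript is cut just after a short stem-loop, which the protein SLBP binds and which takes the place of a poly(A) tail. Several of these genes can also run past the stem-loop to a poly(A) signal, a form described in cells that have left the cycle or are differentiating. The genes lie in clusters, and many H2A and H2B genes are arranged head to head around a common promoter.

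The stem-loop is the feature that sets the usual form of these mRNAs apart, so it is shown first for 6 genes with large rises and 1 without. The letters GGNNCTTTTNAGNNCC (16 letters, N for any base) were searched on the transcript strand after the coding sequence in the GENCODE 29 transcripts. They were found in 31 of the 71 genes, and most of the others, HIST1H2BK among them, have gene models that stop at the stop codon. Each line gives the gene, its hg38 position and strand, and 26 bases of transcript from 5′ to 3′ with the match in capitals.
HIST1H2AC, chr6:26124664-26124689, plus strand: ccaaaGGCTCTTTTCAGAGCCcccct
HIST1H2BD, chr6:26158582-26158607, plus strand: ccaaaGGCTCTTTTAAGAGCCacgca
HIST1H2AG, chr6:27133510-27133535, plus strand: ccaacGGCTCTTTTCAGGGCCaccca
HIST1H3H, chr6:27810511-27810536, plus strand: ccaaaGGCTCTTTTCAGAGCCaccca
HIST1H4I, chr6:27139649-27139674, plus strand: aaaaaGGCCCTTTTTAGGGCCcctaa
HIST4H4, chr12:14770719-14770744, minus strand: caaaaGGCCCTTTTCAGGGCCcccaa
HIST1H2BH, chr6:26252050-26252075, plus strand: ccaaaGGCTCTTTTCAGAGCCactta
The last of these, HIST1H2BH, is shown because its level did not pass the test and its match is letter for letter that of HIST1H2AC. The form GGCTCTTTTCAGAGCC was carried by 17 genes of types H2A, H2B and H3. All 8 matches in H4 genes had 1 of 2 other forms, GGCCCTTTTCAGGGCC in 5 genes and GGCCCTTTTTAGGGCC in 3.

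Counts per library ran from 18834611 to 23485628 in the controls and from 14972069 to 16210861 with 8p. Of 13822 genes tested with edgeR's quasi-likelihood test, 10330 (74.7%) passed an adjusted p of 0.05, so a call by itself was common. Mitochondrially encoded genes took 1.64% to 1.91% of the counts in controls and 6.42% to 10.004% with 8p. Replicate 2 of 8p had the 6.42% and differed from both other 8p libraries more than they did from each other. All 12 myeloid markers were detected, with a summed 2247 to 2389 CPM (counts put on 1 scale by TMM library sizes) in controls and 5393 to 6023 with 8p. The members did not move together: 8 rose, LYZ from 1040 to 3732 CPM among them, and MPO, CD33 and FCGR1A fell. Of all tested genes 37.9% rose and 36.9% fell. The erythroid and megakaryocytic markers summed to at most 0.675 CPM in any library, with HBB, HBA1, HBA2 and PF4 at 0. T and NK cell markers summed to 21.0 to 24.8 CPM in controls and 30.5 to 38.9 with 8p, where NKG7 rose and CD3D fell, and B cell markers to at most 2.29 CPM. Epithelial and fibroblast markers summed to 9.74 to 10.3 CPM in controls and 31.6 to 41.8 with 8p, with EPCAM, KRT19, COL1A2 and DCN at 0. Most of the latter was COL1A1, a collagen chain, which went from 0.542 ± 0.297 to 31.8 ± 5.99 CPM (SD, n = 3), while KRT18 fell from 8.48 ± 0.704 to 3.06 ± 0.410. The single markers named in these sums with a level above 0 were chosen after their values were seen. The part of these shifts in the histone values was not tested.

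Histone transcripts took a larger share of the library with 8p. The 71 genes together had 61.2, 62.9 and 61.0 CPM of unscaled total counts in the 3 controls (61.7 ± 1.03, SD, n = 3). They had 377, 343 and 376 with 8p (365 ± 19.3, n = 3), 5.92 times the control mean. Every 8p library lay far above every control, and replicate 2 was the lowest of the 8p libraries. Each level is a share of a bulk library, so a change in the make-up of the culture and a change in RNA per cell cannot be told apart.

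Gene by gene, 36 of the 71 passed the filter on low counts and were tested. Among them 26 rose, which is to be read against 37.9% of all tested genes, and 1 fell, against 36.9%. The other 9 did not pass the threshold. The median log2 fold change of the 36 was 1.65, from -0.91 to 4.64, where the median of all tested genes was 0.03. In 12 of them the level rose at least 4-fold, against 7.49% of all tested genes. Control and 8p libraries did not overlap for 28 of the 36 (77.0% of all tested genes), and in 26 of these the 8p libraries were the higher ones (38.9% of all). The filter asked for about 0.571 CPM in 3 libraries, and 19 of the 36 reached this in all 3 controls: 14 of them rose, 1 fell and 4 did not pass. Another 13 reached it through the 8p libraries alone, and 12 of those rose, a direction that this route through the filter favours. Without replicate 2 of 8p, 41 histone genes could be tested and 30 rose, with a summed mean of 376 CPM in the 8p group.

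**Figure D1:**
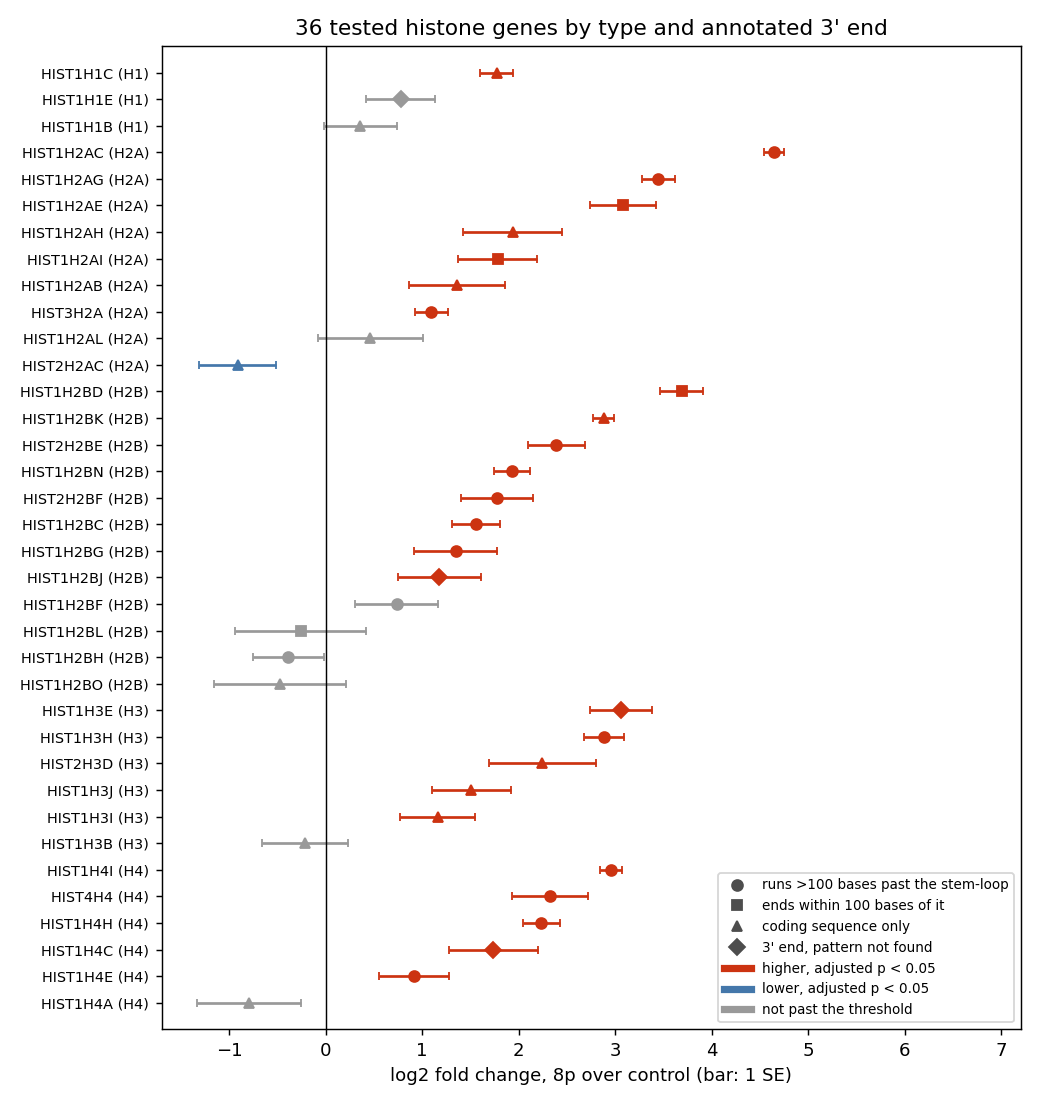
Log2 fold change of 8p over control for the 36 histone genes tested, ordered by histone type and size. Points are edgeR estimates, bars are 1 standard error, colour gives the call at an adjusted p of 0.05 and the symbol gives the annotated 3′ end. HIST1H2AC at 4.64 stood at the top, and HIST2H2AC at -0.91 was the single gene called lower.

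The H2A genes held the largest single rise. H2A pairs with H2B in the dimers that flank the core of H3 and H4 in a nucleosome. Of 17 H2A genes 9 were tested. Of these 7 rose and 1 fell, against 37.9% and 36.9% of all tested genes, and their median log2 fold change was 1.78.

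HIST1H2AC had 2.99, 2.85 and 2.94 CPM in controls and 72.3, 71.1 and 76.6 CPM with 8p. The groups did not overlap, and the spread within each was small beside the gap. Its log2 fold change was 4.64 (SE 0.105, edgeR adjusted p = 2.03e-14). HIST1H2AG had 2.70, 2.57 and 1.74 CPM in controls and 27.0, 28.4 and 22.1 with 8p. Every 8p library was above every control, a log2 fold change of 3.45 (SE 0.173, edgeR adjusted p = 6.51e-11). HIST1H2AE started lower, at 0.506, 0.841 and 0.272 CPM, and had 4.53, 4.20 and 5.33 CPM with 8p, a log2 fold change of 3.08 (SE 0.344). HIST3H2A, from the small cluster on chromosome 1, changed less: 4.81, 4.02 and 4.79 CPM in controls and 10.8, 10.1 and 8.23 with 8p, again without overlap, a log2 fold change of 1.10 (SE 0.171).

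HIST2H2AC was the exception in direction. It had 40, 45 and 37 counts in controls (1.69, 2.10 and 2.01 CPM) and 19, 23 and 6 with 8p (1.26, 1.38 and 0.405 CPM). The groups did not overlap, but the low value of replicate 3 carried much of the difference. Its log2 fold change of -0.91 (SE 0.398) had an edgeR adjusted p of 0.0499. Without replicate 3 of 8p the value was -0.56 with an adjusted p of 0.16, and the call was also lost with DESeq2 (adjusted p = 0.0623), with 2 other scalings and without any 1 of the controls. Of its 50-base stretches, 30.5% also occur in another gene, most of all HIST2H2AA3.

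H2B genes rose in 8 of 12 tested, against 37.9% of all tested genes, with none lower and a median log2 fold change of 1.45. HIST1H2BK was the most abundant histone transcript of both groups. It had 11.2, 12.01 and 12.4 CPM in controls and 93.0, 74.4 and 94.1 with 8p. Replicate 2 was again the lowest of the 8p libraries and still well above the highest control. The log2 fold change was 2.88 (SE 0.107, edgeR adjusted p = 2.43e-12). Because 74.1% of its 50-base stretches are shared with other genes, the closest being H2BFS, reads of these copies may have been divided or dropped in the counting. HIST1H2BD, which shares 5.36%, had 1.22, 2.15 and 1.41 CPM in controls and 21.8, 15.6 and 24.6 with 8p. That is a log2 fold change of 3.69 (SE 0.225, edgeR adjusted p = 6.10e-10), and its groups did not overlap.

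HIST2H2BE, the neighbour of HIST2H2AC, had 1.18, 1.45 and 0.707 CPM in controls and 6.92, 4.43 and 6.48 with 8p. It rose by 2.39 on the log2 scale (SE 0.292). HIST1H2BC went from 2.40, 2.01 and 1.52 CPM to 7.12, 4.55 and 6.07, a log2 fold change of 1.56 (SE 0.250). Both were higher in all 3 treated libraries than in any control. The 4 H2B genes that did not pass were HIST1H2BF (log2 fold change 0.73), HIST1H2BL (-0.26), HIST1H2BH (-0.39) and HIST1H2BO (-0.47). HIST1H2BL and HIST1H2BO had no count in replicate 2 of 8p, and without it both differences turned positive, to 0.32 and 0.11. HIST1H2BH had 1.05, 1.26 and 1.25 CPM in controls and 0.998, 0.719 and 1.01 with 8p, all 3 treated libraries just below the controls.

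H4, the partner of H3 in the core tetramer, rose in 5 of 6 tested genes, against 37.9% of all. The median log2 fold change was 1.99. HIST1H4I stood out by its level and its close control replicates, with 6.32, 6.50 and 6.42 CPM in controls and 54.1, 42.7 and 52.8 with 8p. Its log2 fold change was 2.96 (SE 0.117, edgeR adjusted p = 4.75e-12). HIST1H4H had 1.81, 1.78 and 2.12 CPM in controls and 9.65, 9.17 and 8.03 with 8p, a log2 fold change of 2.24 (SE 0.195). HIST4H4, alone on chromosome 12, had 0.548, 0.327 and 0.381 CPM and then 2.66, 2.16 and 1.62, a log2 fold change of 2.33 (SE 0.395). HIST1H4C rose from 0.379, 0.280 and 0.762 CPM to 2.00, 0.959 and 1.75, and its nearest values were 0.762 and 0.959. In all 4 genes the groups were apart. HIST1H4A, with 10, 14 and 20 counts in controls and 4, 11 and 4 with 8p, did not pass (log2 fold change -0.79, edgeR adjusted p = 0.195), and its groups overlapped. The value ran from -1.40 without replicate 2 of 8p to -0.42 without control replicate 3.

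H3 genes rose in 5 of 6 tested, against 37.9% of all tested genes, with a median log2 fold change of 1.88. HIST1H3H had 1.22, 1.26 and 1.74 CPM in controls and 9.92, 11.5 and 9.51 with 8p, a log2 fold change of 2.88 (SE 0.208, edgeR adjusted p = 4.79e-09). HIST1H3E had 0.548, 0.327 and 0.599 CPM and then 3.93, 4.37 and 4.05, a log2 fold change of 3.06 (SE 0.322). For both, every treated library was well above every control. HIST1H3I had 0.506, 0.841 and 0.653 CPM in controls and 1.73, 1.08 and 1.69 with 8p, a log2 fold change of 1.16 (SE 0.390). HIST2H3D had 10, 3 and 1 counts in controls and 14, 18 and 17 with 8p. Its log2 fold change of 2.24 (SE 0.554) rests on those few counts, and 80.4% of its 50-base stretches occur in other genes. HIST1H3B had 0.801, 0.701 and 0.925 CPM in controls and 0.599, 0.420 and 1.08 with 8p, which overlap, and its log2 fold change was -0.22 (edgeR adjusted p = 0.669).

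Linker histone H1 binds the DNA between nucleosomes. Of its 3 tested genes 1 rose, which is close to the 37.9% of all tested genes. HIST1H1C rose from 4.22, 3.97 and 5.60 CPM to 15.04, 18.0 and 13.8, with no overlap and a log2 fold change of 1.77 (SE 0.170, edgeR adjusted p = 1.39e-07). HIST1H1E had 1.10, 0.841 and 1.03 CPM in controls and 2.26, 1.44 and 1.42 with 8p. All treated values were above the controls, yet its log2 fold change of 0.78 (SE 0.355) had an edgeR adjusted p of 0.0593. On leaving out 1 library the adjusted p ran from 0.0461 (without replicate 2 of 8p, the single omission that passed) to 0.272 (without replicate 1 of 8p, at a log2 fold change of 0.50). HIST1H1B, with 1.22, 0.888 and 0.871 CPM in controls and 0.865, 1.56 and 1.42 with 8p, overlapped between groups (log2 fold change 0.36, edgeR adjusted p = 0.396). Its value was 0.16 without replicate 2 of 8p and 0.55 without replicate 1 of 8p.

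**Figure D2:**
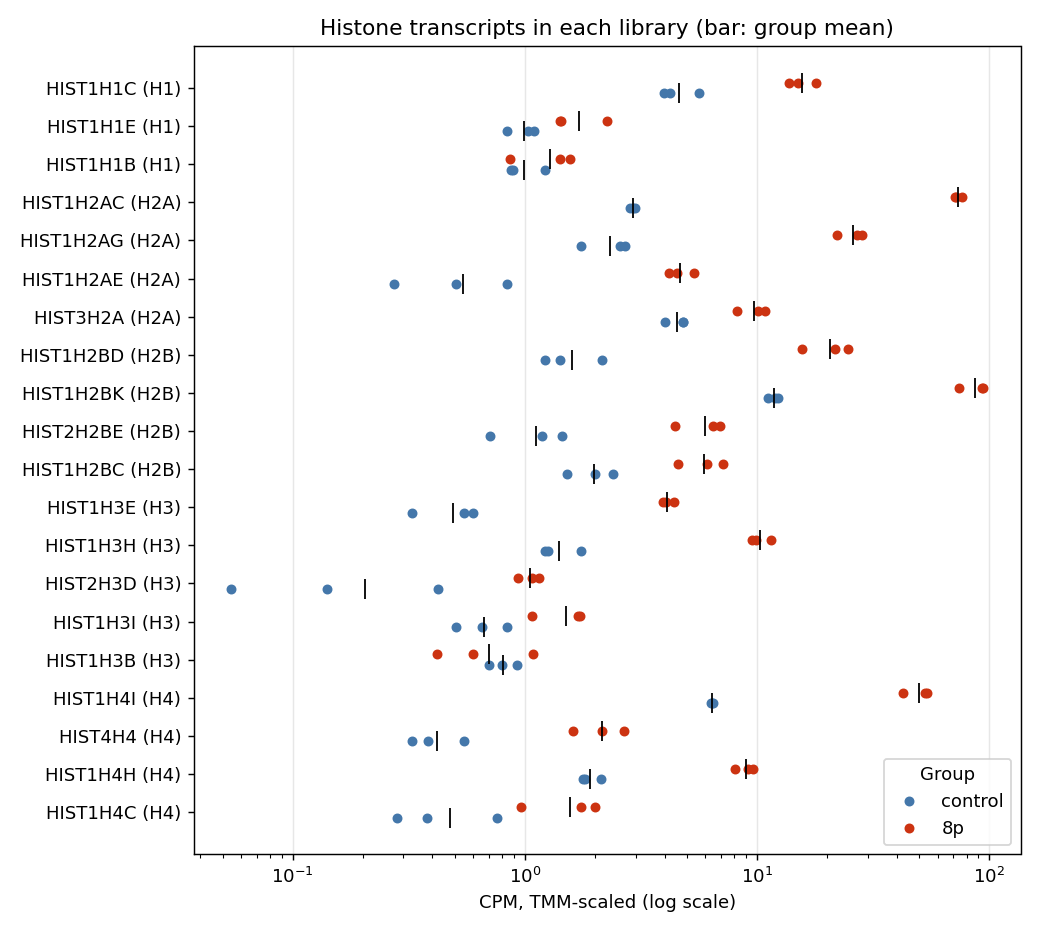
Level of 20 histone genes in each of the 6 libraries, in TMM-scaled CPM on a log axis, with a bar at each group mean. HIST1H2AC, HIST1H2BK and HIST1H4I show wide gaps between tight groups, and HIST1H1B and HIST1H3B show overlapping groups.

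Summed by type, the largest ratio was that of H2A. The 17 H2A genes had 14.6 ± 0.978 CPM in controls and 120 ± 1.17 with 8p (SD, n = 3 each), a ratio of 8.19. HIST1H2AC carried much of this. Without it, a setting chosen after the data were seen, the other 16 went from 11.7 ± 0.973 to 46.7 ± 3.06 CPM, a ratio of 3.98. H2B went from 24.3 ± 1.41 to 138 ± 21.3 CPM and H4 from 11.8 ± 0.694 to 67.5 ± 8.12 CPM, ratios of 5.70 for both. The H2B sum keeps HIST1H2BK (mean 11.8 to 87.2 CPM) and the H4 sum HIST1H4I (6.41 to 49.9 CPM). The ratio of 3.98 for H2A without its top gene is therefore not on like terms with them. H3 went from 4.48 ± 0.428 to 20.4 ± 0.735 CPM and H1 from 6.73 ± 0.839 to 19.0 ± 2.58 CPM, ratios of 4.55 and 2.83. In each type the lowest 8p library was above the highest control.

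**Figure D3:**
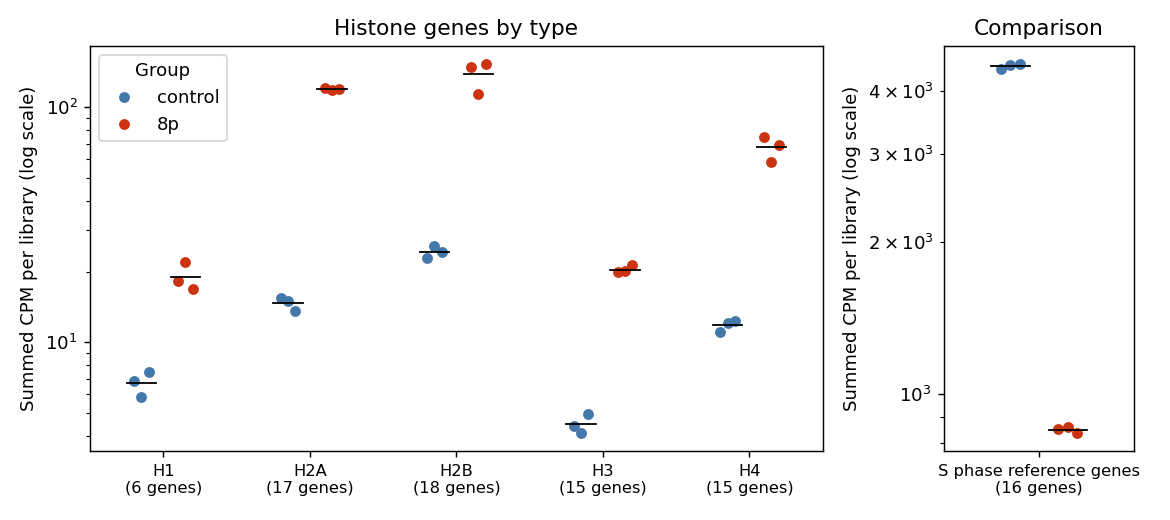
Summed level of the histone genes of each type in each library, in CPM on a log axis, with the 16 S phase reference genes in the panel at the right. Points are libraries and bars are group means. All 5 histone types were higher with 8p, and the S phase genes were lower, at 4474 CPM in controls and 850 CPM with 8p.

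With 8p 4 genes made up most of the total, 64.7% of it against 38.0% in controls. HIST1H2BK, HIST1H2AC, HIST1H4I and HIST1H2AG, the 4 with the highest mean CPM with 8p, summed to 23.5 ± 0.374 CPM in controls and 236 ± 17.0 with 8p, a ratio of 10.04. These 4 were chosen on the 8p values, so the ratio is a description. The other 67 genes went from 38.4 ± 0.882 to 129 ± 10.7 CPM, a ratio of 3.35. HIST1H2AC alone went from 4.72% to 20.1% of all histone CPM, and HIST1H2BK from 19.1% to 23.9%.

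Levels of different genes were compared per length, as RPKM, the CPM divided by the deposited gene length in kilobases. These lengths cover unlike parts of the genes. HIST1H2BK (381 bases), HIST1H1C (642) and HIST2H2AC (390) have models without bases after the coding sequence. HIST1H2AC (1668 bases) has up to 1128 bases past the stem-loop. The order of genes can therefore depend on the annotation, and how far was not tested. In controls HIST1H2BK led with 31.1 ± 1.59 RPKM, followed by HIST1H1C (7.16 ± 1.37), HIST3H2A (5.07 ± 0.502), HIST2H2AC (4.96 ± 0.562) and HIST1H4I (4.96 ± 0.0665). HIST3H2A, HIST2H2AC and HIST1H4I did not differ beyond their spread. With 8p HIST1H2BK led with 229 ± 29.1 RPKM, followed by HIST1H2AC (44.0 ± 1.72), HIST1H4I (38.6 ± 4.82), HIST1H1C (24.3 ± 3.42) and HIST1H2BD (23.7 ± 5.27). HIST1H2AC held rank 10 in controls, at 1.76 ± 0.0432 RPKM, and rank 2 with 8p. The ranges of HIST1H1C and HIST1H2BD overlapped with 8p.

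Genes were called higher in all 4 clusters, of which HIST3 and HIST4 had 1 tested gene each, too few to describe a cluster. All counts by cluster are to be read against 37.9% of all tested genes that rose and 36.9% that fell. The HIST1 cluster spans chr6:25726132-27893843 in hg38, and 21 of its 30 tested genes rose with none lower (median log2 fold change 1.54). It falls into 3 groups of genes. In the first, chr6:25726132-26285638, 11 of 16 tested genes rose, with a median of 1.46. In the second, chr6:27125897-27147515, all 5 genes (HIST1H2BJ, HIST1H2AG, HIST1H4I, HIST1H2BK and HIST1H2AH) were tested and all 5 rose, with a median of 2.88. In the third, chr6:27807444-27893843, 5 of 9 rose, with a median of 1.16. The difference between the 3 groups was not tested. HIST2, on chromosome 1, had 3 genes higher and 1 lower of 4 tested (median 2.01).

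Genes of other kinds within the HIST1 span had a lower median. Of 20 such protein-coding genes 13 were tested, and the median was 0.36 on the log2 scale. Among the 13 tested, 6 rose and 2 fell, against 37.9% and 36.9% of all tested genes. The largest rise was in AL031777.3 (3.80, SE 0.569), whose exons cover 100% of the exonic bases of HIST1H3D and 98.0% of those of HIST1H2AD. Both histone genes had no count in any library. Whether the reads of AL031777.3 fell on histone sequence cannot be told from gene counts. TRIM38 followed with 1.03 (SE 0.0782). These 2 were chosen after their values were seen.

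**Figure D4:**
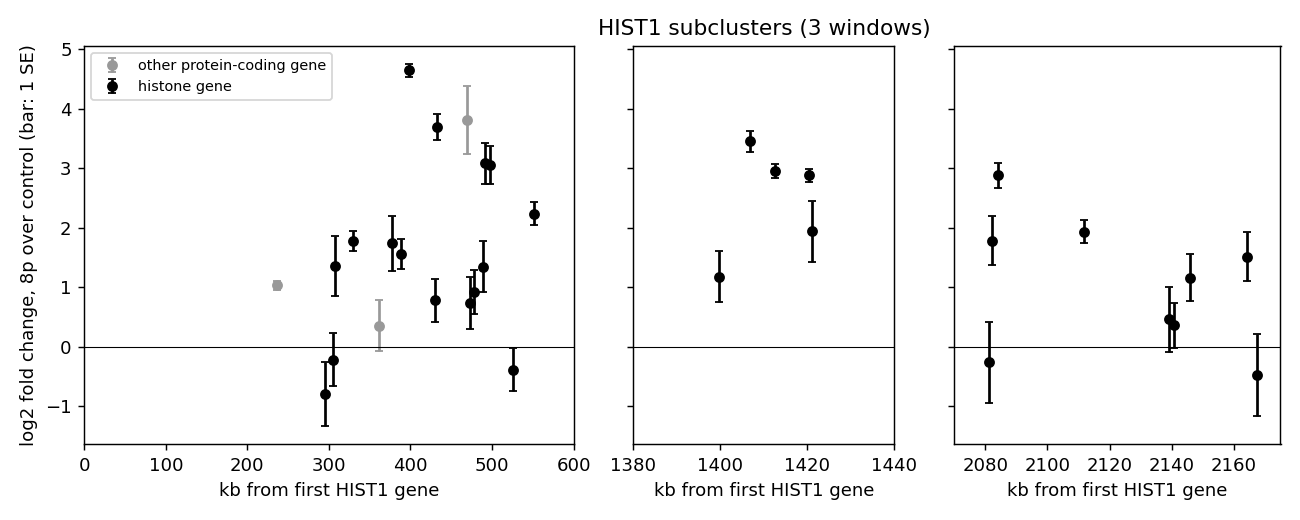
Log2 fold change of 8p over control against distance in kilobases from the first gene of the HIST1 cluster, in 3 windows, with bars of 1 standard error. Black points are histone genes and grey points are other protein-coding genes. Of the other genes tested only TRIM38, HFE and AL031777.3 lie in the windows, and ABT1 and BTN3A2, which fell, do not. The 5 genes of the middle window all lie above 1, and the outer windows hold values on both sides of 0.

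Head-to-head H2A and H2B genes share their promoter region, and the ratio within each pair is given here. There were 11 such pairs, and both genes were tested in 6. The log2 ratio of HIST1H2AC to HIST1H2BC (CPM plus 0.5) was 0.27, 0.42 and 0.76 in controls and 3.26, 3.82 and 3.55 with 8p, a shift of 3.06 toward H2A. HIST1H2AG shifted by 2.45 against HIST1H2BJ, HIST1H2AE by 1.52 against HIST1H2BG, and HIST1H2AI by 1.29 against HIST1H2BL. The last was 0.82 without replicate 2 of 8p, where HIST1H2BL had no count, an omission tried after the data were seen. In the remaining 2 pairs the shift was toward H2B, -1.71 for HIST1H2AH against HIST1H2BK and -2.76 for HIST2H2AC against HIST2H2BE. HIST1H2AH had 0.337, 0.561 and 0.218 CPM in controls, of the same order as the 0.5 added. The size of its shift and the gap between its groups therefore depend on that addition. The edgeR log2 fold changes were 1.94 for HIST1H2AH and 2.88 for HIST1H2BK. In the pairs HIST1H2AE with HIST1H2BG and HIST1H2AI with HIST1H2BL, control levels of each gene lay within 0.272 to 0.841 CPM. The size of the shift in these pairs depends on the 0.5 as well. The levels of 77.0% of all single genes tested did not overlap between groups. With 0.5 CPM added, the same held for the ratios in all 6 pairs. Each gave an exact two-sided permutation p of 0.1, adjusted 0.1 over the 6, which is the smallest that 3 libraries against 3 allow and cannot pass 0.05.

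**Figure D5:**
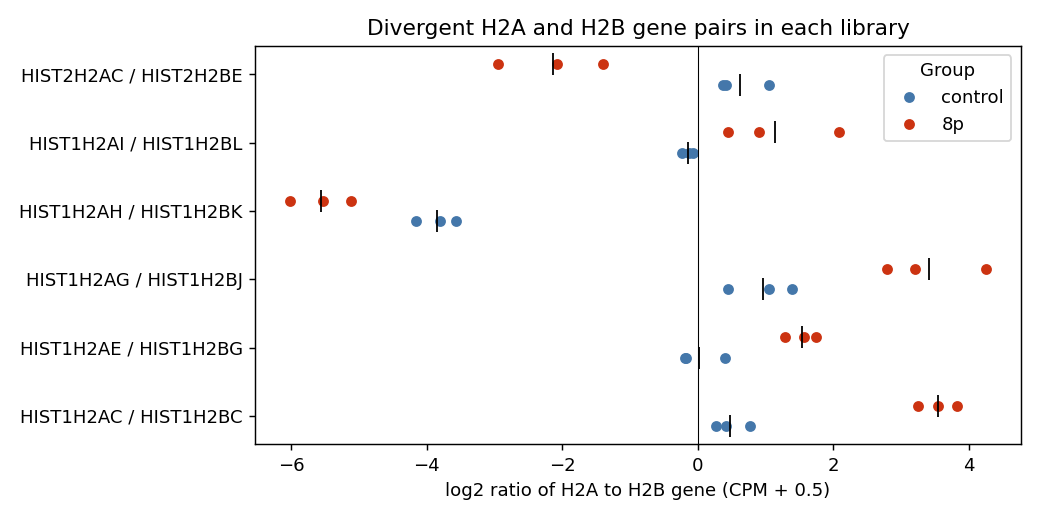
Log2 ratio of the H2A gene to its head-to-head H2B gene in each library (CPM plus 0.5), with a bar at each group mean. In 4 pairs the 8p libraries lie to the right of the controls, and for HIST1H2AH with HIST1H2BK and HIST2H2AC with HIST2H2BE they lie to the left.

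The promoter windows of the pairs with the extreme shifts are shown because the members of each pair read the same bases on opposite strands. The RefSeq windows (GRCh38.p14, 250 bases before the start) of HIST1H2AC and HIST1H2BC have 245 bases in common, and those of HIST2H2AC and HIST2H2BE 235. Capitals mark ATTTGCAT (the octamer bound by OCT1), CCAAT (the NF-Y box), TATAAA (the TATA box) and GGTCCG (the core of the HINFP site), each on either strand. Adjacent or overlapping matches run together.
HIST1H2AC, chr6:26123922-26124171, plus strand: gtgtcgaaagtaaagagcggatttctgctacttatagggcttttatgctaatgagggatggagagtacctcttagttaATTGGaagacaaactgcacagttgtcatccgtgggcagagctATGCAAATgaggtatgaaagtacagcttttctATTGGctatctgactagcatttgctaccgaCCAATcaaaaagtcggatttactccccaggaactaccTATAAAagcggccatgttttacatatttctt
HIST2H2BE, chr1:149886683-149886932, minus strand: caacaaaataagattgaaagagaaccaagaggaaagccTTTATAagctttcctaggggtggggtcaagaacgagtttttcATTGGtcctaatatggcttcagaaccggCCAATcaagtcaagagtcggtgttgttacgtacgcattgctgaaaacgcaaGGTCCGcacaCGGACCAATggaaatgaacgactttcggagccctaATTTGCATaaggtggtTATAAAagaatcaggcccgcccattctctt
Windows were matched for 61 of the 71 genes, 65 windows in all, since some genes have more than 1 start. The octamer was in 78.6% of H2A windows and 75.0% of H2B windows, against 1.63% of 35116 RefSeq promoter windows of the same length. CCAAT was in every window of types H1, H2A, H2B and H3, in 23.1% of H4 windows and in 32.0% of all windows. GGTCCG was in 92.3% of H4 windows and 9.43% of all. TATAAA was in 66.2% of histone windows and 10.7% of all. A match describes letters in the window only, and windows of paired genes are not independent.

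The annotated 3′ ends differed between genes. Numbers of genes that rose or fell in each group are to be read against 37.9% and 36.9% of all tested genes. In 22 genes a transcript ran over 100 bases past the stem-loop, and 13 of the 15 tested rose, with a median log2 fold change of 1.93. HIST1H2AC, HIST1H2AG, HIST1H4I and HIST1H3H were of this kind. In 9 genes the transcripts that hold the stem-loop ended within 100 bases of it, and 3 of 4 tested rose (median 2.43). HIST1H2BD is among these, and it also has a spliced transcript that ends farther on and does not hold the pattern. In 35 genes no coding transcript had annotated bases after the coding sequence, so reads past its end could not be counted on such transcripts. Of the 13 tested, 7 rose and 1 fell (median 1.16), HIST1H2BK and HIST1H1C among the 7. HIST1H3J, also among the 7, has 2 transcripts, 1 of them spliced, and 775 exonic bases. The remaining 5 genes had a 3′ end without the pattern, and 3 of 4 tested rose (median 1.46). Of 14 tested genes with a poly(A) signal in the last 40 bases of a transcript 13 rose (median 2.08). Of 22 in which none was found 13 rose and 1 fell (median 1.35). The 22 include the 13 tested genes without bases after the coding sequence, HIST1H2BK and HIST1H1C among them. In those the 40 bases searched were coding sequence, so the split follows the annotation in part. Of 18 genes that published work describes as also giving polyadenylated mRNA, 13 were tested and 12 rose (median 1.78). Outside that list 14 of 23 tested rose and 1 fell (median 1.36). These groups were not tested against each other, and gene counts do not show which form of the mRNA was sequenced.

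The labels say that mRNA was enriched by poly(A) capture or by rRNA removal without saying which. Capture selects for a poly(A) tail, which the form of histone mRNA that ends at the stem-loop lacks. Of 12 RNAs that lack a poly(A) tail or respond to the enrichment step, 5 were tested and all 5 rose, against 37.9% of all tested genes. MT-RNR1 rose by 3.56 and MT-RNR2 by 3.44 on the log2 scale, the nuclear RNAs NEAT1 and MALAT1 rose by 1.80 and 1.66, and RN7SL2, an RNA of the signal recognition particle, rose by 1.03. RMRP, RN7SK, RN7SL1, RNU7-1, RPPH1 and SCARNA2 were at 0 in all libraries. The summed level of the 12 was 3178 to 3391 CPM in controls and 28999 to 38482 with 8p. That sum holds MT-RNR1 and MT-RNR2, which rose more than the other tested RNAs of the list. Mitochondrially encoded genes as a whole also took a larger share of the counts with 8p. The sum therefore does not give the size of the rise in NEAT1, MALAT1 or RN7SL2. The part of these rises in the histone values was not tested.

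The remaining 35 histone genes had too few counts to be tested. Of these, 21 had at least 1 count, with no more than 53 over the 6 libraries. The mean was higher with 8p in 18 of them and in the controls in 3. Some of these means rest on few reads, such as HIST1H1A with 4 counts, all in replicate 2 of 8p. The same was not counted over other untested genes, so the 18 have no share to be read against. The other 14 histone genes had no count in any library. Of those 14, 5 lie at least 85% inside the exons of another gene, such as HIST1H3D in AL031777.3 and HIST1H2AK in HIST1H2BN, and 1, HIST2H3C, shares every 50-base stretch with HIST2H3A. The other 8 had neither property. A count of 0 in a library allows a level of up to 0.126 to 0.202 CPM, by counting error only. Under 10% of 50-base stretches and under 10% of exonic bases were shared with other genes in 48 histone genes, of which 28 were tested. Of the 28, 21 rose and none fell, against 37.9% and 36.9% of all tested genes. The median of the 28 was 1.65 on the log2 scale.

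Genes that act on histone genes and histone mRNA moved mostly the other way. Among 29 factors of histone mRNA 3′ processing and turnover, 25 fell, 3 rose and 1 did not pass, with a median log2 fold change of -0.81. These counts are to be read against 36.9% of all tested genes that fell and 37.9% that rose. SLBP, which binds the stem-loop, had 171 ± 18.0 CPM in controls and 44.2 ± 1.42 with 8p (SD, n = 3), and fell by 1.95 on the log2 scale (SE 0.0841, edgeR adjusted p = 1.12e-11). SNRPG, SNRPB, SNRPD3 and SNRPF, Sm proteins found in the U7 and spliceosomal particles, fell by 2.34, 2.26, 1.80 and 1.69. CSTF2, a cleavage factor, fell by 1.74, and CASP8AP2, a protein of the histone locus body, by 0.76. NPAT, the coactivator that cyclin E and CDK2 phosphorylate at these loci, had 21.4 ± 1.64 CPM in controls and 20.4 ± 2.96 with 8p and did not pass (log2 fold change -0.07, edgeR adjusted p = 0.634). With upper quartile scaling its value was 0.12.

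Of 26 tested regulators of histone gene transcription 15 fell and 6 rose, against 36.9% and 37.9% of all tested genes. The deepest falls were in CDC25A (-3.49), CCNE1 (-3.24), E2F1 (-3.14), CCNE2 (-3.01), E2F2 (-2.99) and CDK2 (-2.11), all of which act at the start of S phase. All 16 S phase reference genes fell, against 36.9% of all tested genes, with a median of -3.22. They included RRM2 (-5.45), a subunit of ribonucleotide reductase, CDC45 (-4.75) and GINS2 (-4.48) of the replicative helicase, and TYMS (-3.98), which makes thymidylate. Histone transcripts were thus higher in the libraries in which the summed S phase genes, at 4474 ± 55.2 CPM in controls, stood at 850 ± 12.4 CPM (SD, n = 3 each).

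Histone chaperones and assembly factors fell in 24 of 32 tested and rose in 6, against 36.9% and 37.9% of all tested genes. Their median log2 fold change was -1.01. CHAF1B, a subunit of the CAF-1 complex that deposits new H3 and H4, fell by 4.02 on the log2 scale. MCM2, a helicase subunit that also binds H3 and H4, had a log2 fold change of -3.61, and ASF1B, which hands these dimers to CAF-1, had -3.23. The centromere chaperone HJURP fell by 2.51, and TONSL and MMS22L, partners at the replication fork, by 2.10 and 2.08.

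The replication-independent variants, most of which are made from polyadenylated mRNA outside S phase too, were 10 tested genes. Of them 6 fell and 3 rose, against 36.9% and 37.9% of all tested genes. H2AFZ (H2A.Z) had 266 ± 15.9 RPKM in controls and 40.6 ± 2.67 with 8p, and fell by 2.71 on the log2 scale (SE 0.0772). H2AFX (H2A.X) fell by 2.16 and CENPA, the centromeric H3, by 2.56. H3F3B, which encodes the variant deposited outside replication, went from 104 ± 7.76 to 82.5 ± 7.78 RPKM and fell by 0.33, and H2AFV fell by 0.44. H1F0, the linker histone known from cells that stop dividing, had 1.21 ± 0.163 RPKM in controls and 6.84 ± 1.49 with 8p and rose by 2.51 (SE 0.189, edgeR adjusted p = 8.12e-09). H2AFY, which encodes macroH2A, rose by 0.56. Per length, HIST1H2BK at 31.1 RPKM in controls lay below H2AFZ, and at 229 RPKM with 8p above it. That comparison rests on the annotated lengths, which for HIST1H2BK is 381 bases without any after the coding sequence.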

How the data were processed

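The authors deposited whole-number read counts per gene for the 6 libraries, with gene length, position and biotype. Per the submitters' processing notes, HISAT2 2.0.5, featureCounts 1.5.0-p3, DESeq2 1.20.0, edgeR 3.22.5 and hg38 were used. Settings for strand, overlapping genes and reads with several matches are not given in the sources used here. The extraction text of the labels speaks of DNA, while the molecule is given as total RNA.

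The deposited counts were tested with edgeR 4.0.16 in R 4.3.3: TMM factors, filterByExpr, the quasi-likelihood F test with group as the single term, and Benjamini-Hochberg adjustment over 13822 genes. The scripts were tested on simulated data. CPM used TMM-scaled library sizes, and RPKM the deposited gene length. Start and end of all 58735 genes equalled GENCODE 29. Values in each library are given for the up to 3 genes per type with the highest mean RPKM and the up to 3 with the largest absolute log2 fold change. Of each companion list up to 6 called genes are named. Members, lists and tests were chosen with earlier results of these data known. Alternatives were DESeq2 1.42.0, limma-voom (limma 3.58.1), other scalings, filters and thresholds, a replicate block, and leaving out each library.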

Additional observations from a re-analysis of the deposited data

Results flagged for a closer look

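Of 19 histone rows that are not protein-coding, HIST2H2BC and HIST2H2BD, transcribed pseudogenes in the chromosome 1 cluster, had enough counts to be tested, and both lie outside the genes described above. HIST2H2BC had 3.12, 4.07 and 3.48 CPM in controls and 8.45, 9.53 and 10.1 with 8p (mean 9.34). Its log2 fold change was 1.39 (SE 0.177, edgeR adjusted p = 3.36e-06), and its groups did not overlap. HIST2H2BD had 0.590, 0.514 and 0.871 CPM in controls and 2.53, 1.86 and 2.63 with 8p (mean 2.34), a log2 fold change of 1.83 (SE 0.363, edgeR adjusted p = 0.000300), again without overlap. How far reads of the coding H2B genes were counted on these rows was not tested.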

How the results depend on the processing

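Of the 26 histone genes called higher, 21 passed in every one of the main and 15 alternative fits in which they were tested. The count was 24 with DESeq2, 26 with limma-voom, 27 with upper quartile scaling, 20 of 23 tested with at least 1 CPM in 3 libraries, and 24 to 30 when 1 library was left out. The 30 came without replicate 2 of 8p. With the replicate block, which same-numbered libraries gave no ground for (r from -0.043 to -0.007), 24 were higher, 0 lower, and 10090 genes were called in all. The number lower was 0, in place of 1, with DESeq2, upper quartile scaling, total counts, an adjusted p of 0.01 or at least 2-fold, and 0 to 1 on leaving out 1 library. Calls lost without 1 library were those of HIST1H2BJ (highest adjusted p = 0.216), HIST1H3I (0.0929) and HIST1H4E (0.128) without replicate 1 of control or 8p, among others, HIST1H2AB (0.129) without replicate 2 of 8p or replicate 2 or 3 of the controls, and HIST1H2BG (0.0786) without replicate 3 of either group. HIST1H2BJ was also not called without control replicate 2, and HIST1H3I and HIST1H4E without control replicate 3. The sign turned for 5 uncalled genes. Leaving out 1 library gave HIST1H2AL -0.28 (without replicate 3 of 8p) to 0.87, and HIST1H2BL -0.87 to 0.32, HIST1H2BO -1.10 to 0.11 and HIST1H3B -0.68 to 0.026 (the highest of each without replicate 2 of 8p). NPAT went to 0.12 with upper quartile scaling, which moved the median of all genes to 0.22 and the share of calls that were higher from 50.6% to 59.4%. Requiring at least 2-fold left 2883 higher and 2421 lower of all genes, 10 higher of the companion genes, and 2 higher and 0 lower of the HIST1 neighbours, of which 1 was lower with upper quartile scaling or an adjusted p of 0.01. The histone sum was 63.1 CPM in controls and 389 with 8p of protein-coding counts, 62.8 and 401 without mitochondrial genes, and 61.1 to 62.1 and 359 to 376 on leaving out 1 library. The causes were not tested.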
